A study of Mus musculus with 9 samples.

Results

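The genes described here are 10 members of the hypoxia-inducible factor (HIF) pathway, measured in the urogenital sinus of mouse fetuses and newborns. They comprise 3 HIF alpha subunits (Hif1a, Epas1 and Hif3a), 2 oxygen-sensing prolyl hydroxylases (Egln1 and Egln3) and 5 genes known as direct HIF targets (Vegfa, Bnip3, Ankrd37, Ndufa4l2 and Ppp1r3c). Members were found by symbol in the platform annotation, counting only probe sets annotated to a single gene, which gave 23 of the 45101 probe sets and 10 of the 18194 genes so annotated. The genes were selected on values of these same arrays, among them the lower Hif3a signal at birth, so the age courses below are descriptions without a test.

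Each of 9 Affymetrix arrays held RNA from the urogenital sinus, the embryonic tube that gives rise to the prostate and the urethra. The arrays covered 3 groups of C57BL/6 offspring. One group came from dams given 20 µg/kg/day of bisphenol A (BPA), a weakly estrogenic building block of polycarbonate plastic. Another came from dams given 0.2 µg/kg/day of diethylstilbestrol (DES), a potent estrogen made by synthesis. The Control group came from vehicle-exposed dams, and the labels name tocopherol-stripped corn oil as the solvent of both agents. Dams were dosed on embryonic days 13 to 16. The ages sampled were embryonic days 17 and 18 (E17 and E18) and birth (P0), with 1 array for each agent and age. The protocol describes removal of the bladder, ducts and seminal vesicle from tracts of both sexes, and the labels do not give the sex or the number of animals or litters behind an array. In such bulk tissue, fewer cells of a type and less RNA per cell cannot be told apart.

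HIF is a transcription factor made of an oxygen-labile alpha subunit and the stable partner Arnt. When oxygen is plentiful, prolyl hydroxylases modify the alpha subunit, the Vhl ubiquitin ligase binds it, and it is degraded. When oxygen is scarce, the alpha subunit persists, enters the nucleus and raises transcription of genes for blood vessel growth, glycolysis, glycogen storage and mitochondrial clearance. Control of the Hif1a product lies mainly at the protein, which arrays do not measure, so the transcripts of its targets are the usual RNA readout. Egln1, Egln3 and Hif3a are themselves known to be HIF-responsive, which forms a feedback loop.

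The deposited signals were brought to a common scale by quantile normalization, and signals below are on that normalised linear scale. Log2 differences are of log2(signal + 5.46), which understates changes of dim probe sets. A filter on the mean log2 value over all arrays left 26999 probe sets, including 21 of the 23 member probe sets and the brightest probe set of all 10 genes. A member probe set of Hif1a, at 6.95 to 35.6, and one of Hif3a, at 1.89 to 5.29, lay below the filter. Before normalization the trimmed mean signal was lowest on the BPA P0 array (157) and highest with DES at E17 (277). On the first principal component, which held 31.2% of the variance, the BPA P0 and Control P0 arrays lay at 55.1 and 34.3. The DES P0 array lay at -5.65, next to the prenatal arrays (-18.5 to -7.12), and so stood apart from the other arrays labelled P0. The 7 gonad markers with a probe set had a summed signal of 3508 on the BPA P0 array, against 317 to 466 on the others. Of 18 listed markers of the sinus and its epithelium, 16 had a probe set and all 16 passed the filter, with summed signals of 16797 to 23634.

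By their brightest probe set, 9 of the 10 genes read lower at birth than at E17 with BPA, 5 with DES and 8 in Control. Of all 13398 genes whose brightest probe set passed the filter, 6304, 6790 and 6738 did so. Of the 10, 8 were at least 1.5-fold lower at P0 than at E17 in the BPA course and 8 in the Control course, against 1 in the DES course. The 8 were the same genes in both courses: Hif3a, Egln1, Egln3, Vegfa, Bnip3, Ankrd37, Ndufa4l2 and Ppp1r3c. Over probe sets, 14 of 21 were at least 1.5-fold lower in the BPA course, where 10.4% of all tested probe sets were. In the DES course it was 2 of 21, where 2.95% of all were, and in the Control course 15 of 21, where 8.74% were. The BPA P0 and Control P0 arrays were the lowest 2 of the 9 arrays for 14 of 21 member probe sets and for 12.3% of all. Since these courses were known when the genes were picked, nothing is read from the shares. Measured from E18 instead of E17, 5 genes were at least 1.5-fold lower at P0 in the BPA course, 0 in the DES course and 5 in the Control course. No share of all tested probe sets was counted from E18, so nothing is read from these counts.

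**Figure D1:**
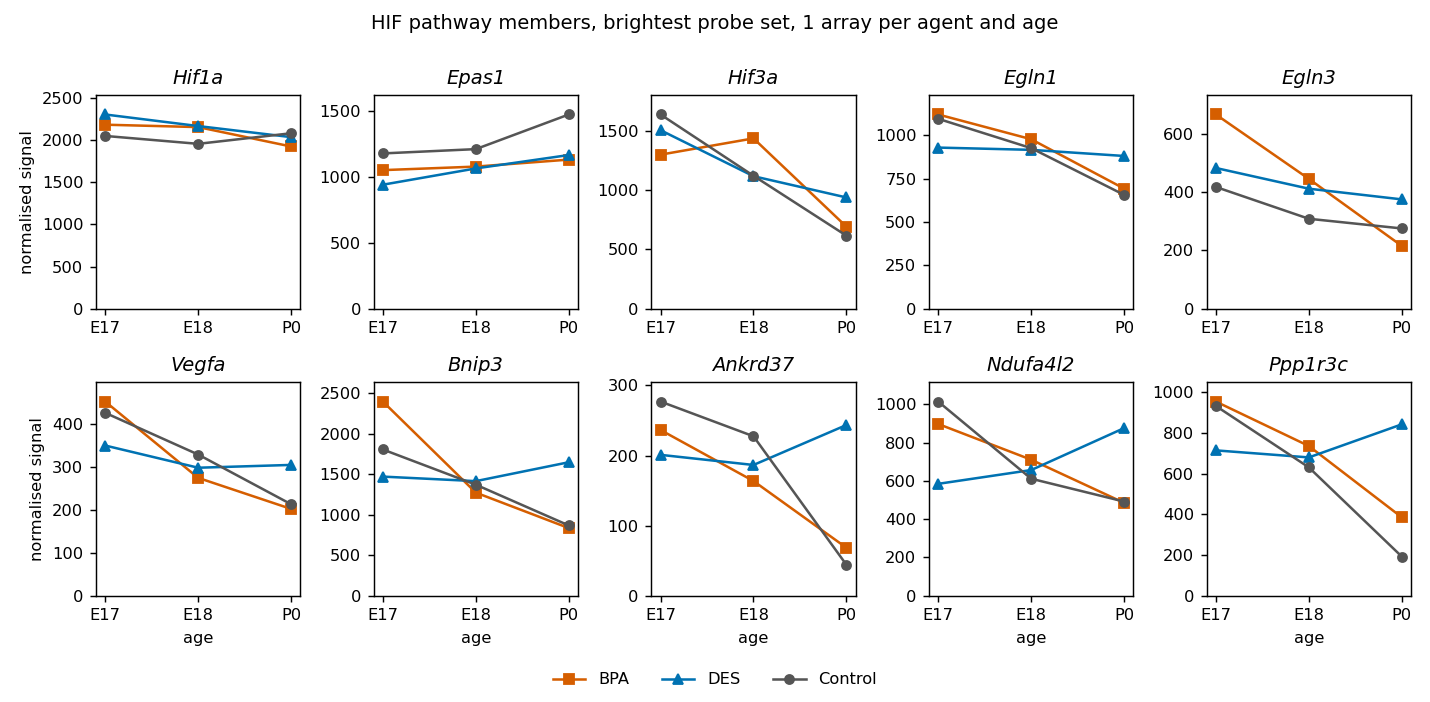
Normalised signal (vertical axis, linear, from 0) of the brightest probe set of each of the 10 genes at E17, E18 and P0 (horizontal axis), with 1 array per point and a line per agent. In the BPA and Control lines 8 genes end at least 1.5-fold lower at P0 than at E17, whereas the DES line of Bnip3, Ankrd37, Ndufa4l2 and Ppp1r3c ends above its E17 point.

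Both steps, to E18 and to birth, contributed. The median over the 10 genes was -0.35 log2 units for E18 minus E17 and -0.58 for P0 minus E18 in the BPA course. In the DES course the medians were -0.08 and 0.08, and in the Control course -0.38 and -0.55. For P0 minus E17 they were -1.02 with BPA, 0.04 with DES and -1.01 in Control, while the median of all tested probe sets was between -0.01 and 0.01 for each of these steps.

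Among the HIF alpha subunits, Hif1a, the broadly expressed oxygen-regulated subunit, was the flattest by its brightest probe set. That probe set read 2184, 2156 and 1925 on the BPA arrays at E17, E18 and P0. It read 2306, 2168 and 2037 with DES, and 2051, 1957 and 2083 in Control. All 9 arrays thus lay close together, and the P0 minus E17 difference averaged -0.11 ± 0.12 log2 units (SD over the 3 agents). The other probe sets of Hif1a past the filter averaged -0.36 ± 0.24 and 0.11 ± 0.16, so they did not share a direction. The first of these, 1416035_at, was lower at P0 under all 3 agents. It read 399, 612 and 553 on the BPA, DES and Control P0 arrays, against 626, 736 and 631 at E17.

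Epas1, which encodes HIF-2 alpha and is known for its expression in endothelium, read higher at P0 than at E17 under each agent. Its signals were 1052, 1079 and 1132 with BPA, 941, 1065 and 1167 with DES, and 1179, 1212 and 1475 in Control, in order of age. The Control array was the highest of the 3 at each age. The P0 minus E17 difference averaged 0.24 ± 0.12, and a dimmer probe set at 33.7 to 101 averaged 0.63 ± 0.43. Most endothelial markers also read higher at P0: of 14, all past the filter, 2 were lower in each course. Their summed signal was 6380, 6160 and 6681 on the BPA, DES and Control P0 arrays, against 5332, 5303 and 5516 at E17. The part of endothelial cells in the Epas1 course was not tested.

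Hif3a, a family member whose splice forms include inhibitors of the other subunits, showed the opposite course. Its brightest probe set read 1298, 1435 and 690 on the BPA arrays, 1504, 1116 and 937 on the DES arrays, and 1636, 1119 and 615 on the Control arrays, from E17 to P0. All 3 P0 arrays lay below all 3 E17 arrays, and the difference averaged -0.997 ± 0.371 log2 units. This was the only gene of the 10 that was at least 1.5-fold lower at P0 in the DES course, at 62.3% of its E17 signal. The P0 signal was 53.2% of E17 with BPA and 37.6% in Control. The same pattern, with the 3 P0 arrays below the 3 E17 arrays, was seen for 9 of 21 member probe sets and for 9.92% of all. By brightest probe set it was seen for 4 of the 10 genes. The 9 include probe sets of Hif3a, whose lower signal at birth was among the selecting values, so nothing is read from this share.

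The 5 probe sets of Hif3a past the filter differed in size and, outside Control, in sign. The second brightest, 1446708_at, read 269, 242 and 75.3 on the BPA arrays, 345, 224 and 214 on the DES arrays, and 337, 204 and 59.4 on the Control arrays. Its Control P0 signal was 17.6% of that at E17. A dim probe set, 1447061_at, read 32.0, 74.9 and 15.97 on the BPA, DES and Control P0 arrays, against 103, 78.3 and 106 at E17. Another dim probe set, 1425429_s_at, read 73.2, 112 and 55.1 on the BPA, DES and Control P0 arrays, against 71.6, 60.4 and 90.6 at E17, so it was higher at P0 in the DES course and nearly level in the BPA course. In Control all 5 were lower at P0, with differences between -2.40 and -0.67 log2 units. Which transcript each probe set reads is not given by the tables used here.

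Egln1, the main prolyl hydroxylase that marks HIF alpha subunits for degradation, read 1119, 977 and 692 on the BPA arrays from E17 to P0. It read 929, 916 and 880 on the DES arrays and 1095, 926 and 656 on the Control arrays. The BPA P0 and Control P0 arrays were the lowest 2, and the DES course was almost level at 94.8% of its E17 signal. A dimmer Egln1 probe set, at 291 to 469, did not follow, with a mean P0 minus E17 difference of 0.20 ± 0.22.

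Egln3, a hydroxylase strongly induced by low oxygen, was highest on the BPA E17 array. It read 667, 446 and 215 on the BPA arrays, 483, 412 and 375 on the DES arrays, and 418, 309 and 275 on the Control arrays. Each agent's course was lower at each later age, and the BPA course spanned the widest range, ending at 32.3% of its E17 signal. The second probe set gave 286, 188 and 93.1 with BPA, 215, 175 and 150 with DES, and 185, 165 and 88.6 in Control. Both probe sets were thus lower at P0 under all 3 agents, a pattern met by 9 of 21 member probe sets and by 19.0% of all. Nothing is read from this share, since the courses were known when the genes were picked.

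Vegfa, the growth factor that draws in blood vessels, read lowest at birth in the BPA and Control courses, at 44.7% of E17 with BPA. Its brightest probe set read 452, 275 and 202 on the BPA arrays, 350, 298 and 305 on the DES arrays, and 426, 329 and 213 on the Control arrays. The second probe set read 191, 134 and 105 with BPA, 148, 115 and 151 with DES, and 246, 170 and 103 in Control. In both, the BPA P0 and Control P0 arrays were the lowest 2 of 9, while the DES P0 array lay within the range of the E18 arrays by the first probe set.

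Bnip3, a mitochondrial outer-membrane protein that marks mitochondria for autophagy, read 2395, 1271 and 834 on the BPA arrays. It read 1469, 1413 and 1646 on the DES arrays and 1803, 1369 and 866 on the Control arrays. At E18 the 3 arrays were close, whereas at P0 the DES array was 1.97 times the BPA array and 1.90 times the Control array. The P0 minus E17 difference averaged -0.80 ± 0.87 log2 units, a spread larger than the mean.

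Ankrd37, an ankyrin repeat protein gene known as a direct HIF target, had the largest P0 minus E17 difference of the 10 brightest probe sets in the BPA course (-1.71) and in the Control course (-2.51), but not in the DES course (0.27). Its single probe set read 237, 164 and 68.4 on the BPA arrays, 201, 187 and 244 on the DES arrays, and 277, 228 and 44.0 on the Control arrays. The DES P0 array was the second highest of the 9 arrays, and the BPA P0 and Control P0 arrays were the lowest. At P0 the DES signal was 3.56 times the BPA signal and 5.53 times the Control signal. Without the DES P0 array the mean P0 minus E17 difference was -2.11, against -1.32 ± 1.43 with it.

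Ndufa4l2, a mitochondrial protein that lowers respiration when oxygen is scarce, read 897, 710 and 485 on the BPA arrays. It read 584, 656 and 875 on the DES arrays and 1014, 611 and 492 on the Control arrays. The DES array was the lowest of the 3 at E17 and the highest at P0, so the DES course ran opposite to the others. Ndufa4l2 is known from pericytes in other tissues, and 8 of 8 mural cell markers passed the filter. Of these, 4 were lower at P0 than E17 in the BPA course, 0 in the DES course and 2 in the Control course. Their summed signal was 7055, 8274 and 7303 on the BPA, DES and Control P0 arrays, against 6418, 6923 and 6627 at E17. The brightest marker, Rgs5, read 2101, 2214 and 2093 on the BPA, DES and Control P0 arrays, against 1654, 1688 and 1547 at E17. The part of mural cells in the Ndufa4l2 course was not tested.

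Ppp1r3c, a subunit that directs protein phosphatase to glycogen and favours glycogen storage, followed Ankrd37. Its brightest probe set read 954, 736 and 385 on the BPA arrays, 714, 680 and 842 on the DES arrays, and 932, 631 and 192 on the Control arrays. The second read 375, 305 and 149 with BPA, 259, 209 and 316 with DES, and 373, 211 and 105 in Control. Both probe sets placed the DES P0 array among the E17 arrays and the Control P0 array lowest.

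**Figure D2:**
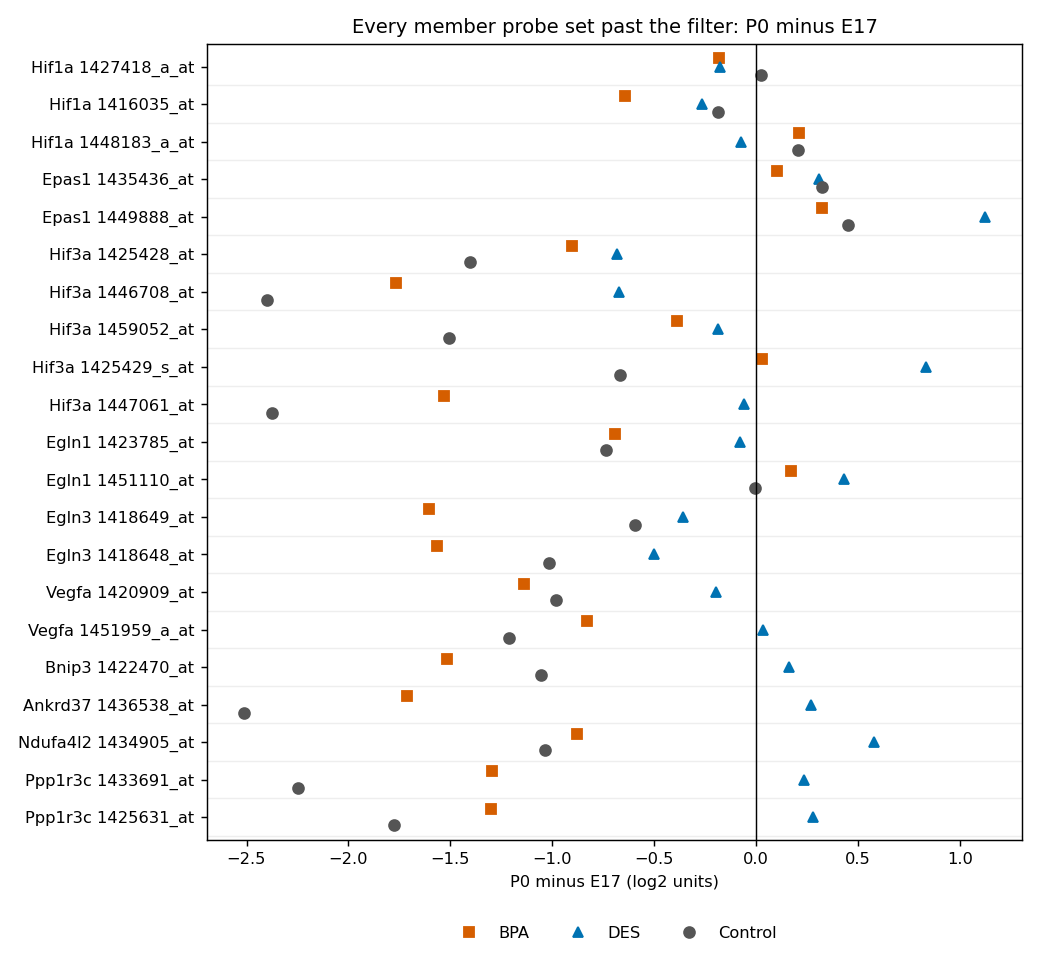
P0 minus E17 difference in log2 units (horizontal axis) for each of the 21 member probe sets past the filter (rows), with 1 symbol per agent from 1 array at each age. Control symbols of Hif3a, Ankrd37 and Ppp1r3c reach furthest left, to -2.51 for Ankrd37, whereas the DES symbols of Bnip3, Ankrd37, Ndufa4l2 and Ppp1r3c lie right of 0.

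HIF binds short elements near its targets, so the proximal promoters of the members that ran together were read. A promoter window was listed for 8 of the 10 genes, 2 windows in the case of Vegfa. Each window runs from 250 bases before to 50 bases after a RefSeq transcription start, on the gene's strand (RefSeq, GRCm38.p6). The core of the HIF response element was searched as ACGTG and GCGTG on both strands, so that the palindrome CACGTG counts once on each strand. At least 1 match lay in 8 of the 9 windows and in 43.8% of all 32851 windows of this length. The member windows held 54.7% to 86.0% G or C, against a median of 52.7% over all windows. Among all windows at or above 54.7%, 63.4% held a match. The sequences of 4 genes whose Control P0 signal was 15.9% (Ankrd37), 20.6% (Ppp1r3c), 37.6% (Hif3a) and 48.0% (Bnip3) of E17 follow, with every match in capitals. Ankrd37 lies at chr8:45999801-46000100, Ppp1r3c at chr19:36736555-36736854, Hif3a at chr7:17062378-17062677 and Bnip3 at chr7:138909457-138909756, each on the minus strand.
Ankrd37: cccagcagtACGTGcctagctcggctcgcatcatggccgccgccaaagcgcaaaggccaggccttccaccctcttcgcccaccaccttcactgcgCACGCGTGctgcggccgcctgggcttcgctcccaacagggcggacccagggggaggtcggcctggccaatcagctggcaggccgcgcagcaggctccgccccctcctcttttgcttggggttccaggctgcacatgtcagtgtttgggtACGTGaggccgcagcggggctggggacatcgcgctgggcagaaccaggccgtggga
Ppp1r3c: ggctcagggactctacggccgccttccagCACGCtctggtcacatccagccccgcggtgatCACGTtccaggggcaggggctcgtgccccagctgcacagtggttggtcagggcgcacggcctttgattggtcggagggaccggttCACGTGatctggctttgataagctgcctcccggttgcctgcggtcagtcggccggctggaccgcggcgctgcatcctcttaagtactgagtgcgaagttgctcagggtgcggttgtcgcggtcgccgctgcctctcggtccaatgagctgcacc
Hif3a: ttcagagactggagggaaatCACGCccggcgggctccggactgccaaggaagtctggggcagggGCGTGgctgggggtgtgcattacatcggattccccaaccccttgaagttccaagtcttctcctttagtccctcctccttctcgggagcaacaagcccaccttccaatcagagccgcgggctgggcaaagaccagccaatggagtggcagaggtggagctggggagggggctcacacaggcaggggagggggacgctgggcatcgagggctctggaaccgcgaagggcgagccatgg
Bnip3: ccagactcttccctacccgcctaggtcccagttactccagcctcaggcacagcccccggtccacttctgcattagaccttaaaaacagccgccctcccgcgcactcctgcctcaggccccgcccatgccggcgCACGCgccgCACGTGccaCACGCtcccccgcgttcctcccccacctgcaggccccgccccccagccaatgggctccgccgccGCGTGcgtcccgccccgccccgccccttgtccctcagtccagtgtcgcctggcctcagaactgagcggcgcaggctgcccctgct

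The Ankrd37 window held 4 matches, the first base of each at -241, -155, -152 and -6 from the start, and those at -155 and -152 overlap. The Ppp1r3c window also held 4, of which those at -104 and -103 form the palindrome. Bnip3 held 5, at -117, -108, -107, -99 and -35, and Hif3a held 2, at -230 and -186. Over all windows, 8.93% held 3 or more matches. The windows of Egln1 and Hif1a held 2 and 3 matches, that of Egln3 held 1, and those of Vegfa held 0 and 2. The Vegfa window without a match, chr17:46032328-46032627, lies upstream of the one with 2, chr17:46025114-46025413, as the gene is on the minus strand. Of the Hif1a matches, those at -135 and -134 form the palindrome, which counts once on each strand. A match is a description of these letters only.

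Whether BPA or DES shifted the members over all ages was tested with limma on all 9 arrays, with agent and age as factors. For BPA against Control, 0 of 26999 probe sets passed at a Benjamini-Hochberg adjusted p of 0.05 (0%), hence 0 of the 21 member probe sets, and 2118 had an unadjusted p under 0.05. For DES against Control, again 0 probe sets passed (0%), with 1520 at an unadjusted p under 0.05. The smallest adjusted p over the member probe sets was 0.535 with BPA, of the brightest Epas1 probe set. With DES it was 0.843, shared by that probe set and 1446708_at of Hif3a. No member passed under any of the 20 alternative settings of either comparison. In the main fit a shift that differs between ages counts as residual spread, so these counts cannot decide whether there was such a shift.

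The brightest Epas1 probe set read lower in exposed tissue at every age, with a log2 difference of -0.24 ± 0.08 with BPA and -0.28 ± 0.08 with DES (SE; limma adjusted p = 0.535 and 0.843). Its mean signal was 1088 ± 40.7 with BPA, 1058 ± 113 with DES and 1288 ± 162 in Control (SD over the 3 ages, 1 array each). This SD includes the age course. Across the other settings its limma adjusted p was 0.466 to 1.00 with BPA and 0.708 to 1.00 with DES. The dimmer Epas1 probe set, 1449888_at, disagreed in direction for BPA. It read 79.3, 98.8 and 101 with BPA, 37.0, 33.7 and 87.1 with DES, and 47.7, 78.5 and 67.2 in Control, in order of age. Its BPA arrays were thus above Control at each age, and its DES array was above Control at P0 and below it before birth. The log2 differences were 0.51 ± 0.27 with BPA and -0.36 ± 0.27 with DES (limma adjusted p = 0.702 and 0.873). Egln3 had a log2 difference of 0.28 ± 0.21 with BPA and 0.35 ± 0.21 with DES (limma adjusted p = 0.785 and 0.856). For Ppp1r3c the differences were 0.41 ± 0.36 and 0.61 ± 0.36, and for Ankrd37 -0.04 ± 0.44 and 0.53 ± 0.44, with limma adjusted p = 0.825, 0.856, 0.992 and 0.878. The other 6 genes lay between -0.08 and 0.08 with BPA and between 0.03 and 0.22 with DES, each with a limma adjusted p of at least 0.876. Without the DES P0 array the DES differences of 6 genes turned from above to below 0. They were -0.35 for Ndufa4l2, -0.21 for Ankrd37, -0.21 for Vegfa, -0.16 for Bnip3, -0.12 for Egln1 and -0.037 for Hif3a. That of Epas1 was below 0 whichever array was left out.

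Set out by age, the DES arrays stood below the Control arrays at E17 and above them at P0. The median DES minus Control difference over the 10 genes went -0.29, 0.02 and 0.55 over E17, E18 and P0. That of BPA minus Control went 0.03, 0.11 and -0.04, and both comparisons use the same Control arrays. The corresponding medians over all tested probe sets were between -0.01 and 0.01. At E17, 8 of the 10 genes were lower on the DES array than on the Control array, and at P0 2 were lower, Hif1a and Epas1. Of all 13398 genes, 6500 were lower at P0. No share of all genes was counted at E17, so nothing is read from the count there. At P0 the DES array was at least 1.5-fold above the Control array for 11 of 21 member probe sets and for 7.17% of all. It was at least 1.5-fold above the BPA array for 10 of 21 and for 8.82% of all. With 1 array for each agent at birth these differences have no replicate check, and nothing is read from the shares since the arrays were known when the genes were picked.

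**Figure D3:**
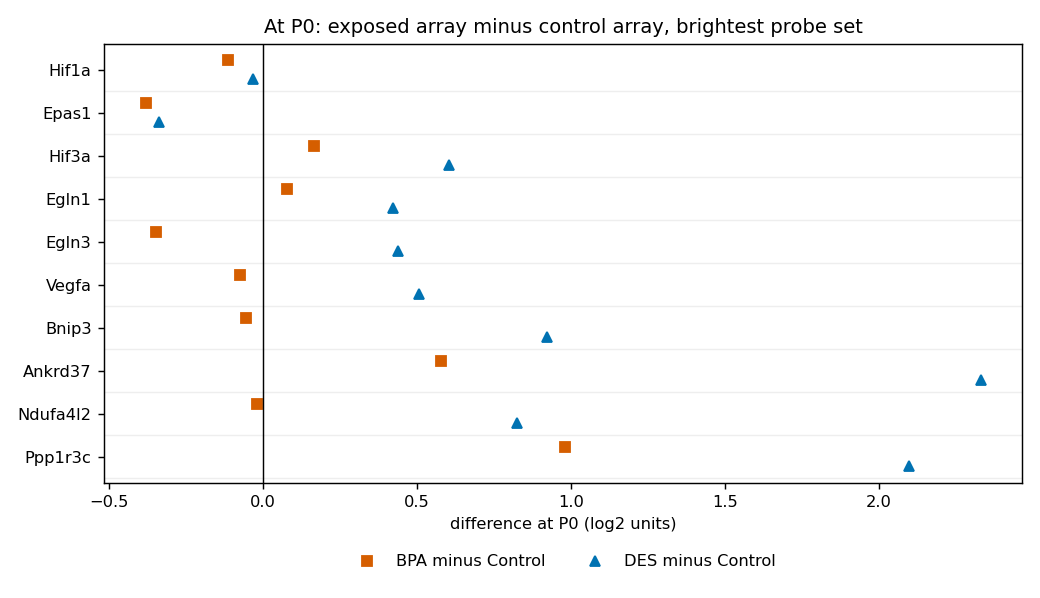
Difference at P0 between an exposed array and the Control array in log2 units (horizontal axis) for the brightest probe set of each gene (rows), with squares for BPA and triangles for DES and the same Control array behind both. The DES triangles lie right of 0 for all genes but Hif1a and Epas1, up to 2.33 for Ankrd37, while the BPA squares lie on both sides of 0.

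Other genes of the pathway were taken from 5 lists. Of 85 listed genes, 76 had a single-gene probe set and 72 passed the filter by their brightest one. With limma, 0 of the 72 passed in either direction for BPA or for DES. Across the 72, the BPA P0 and Control P0 arrays were the lowest 2 for 24, against 13.4% of all 13398 genes. These were 10 of 19 glucose and glycogen targets, 7 of 18 mitophagy, survival and stress targets, 4 of 10 matrix and chromatin targets, 2 of 13 vascular and secreted targets and 1 of 12 partners and regulators. The lists were chosen with earlier results of these data known, so nothing is read from these shares.

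Glucose and glycogen targets had median P0 minus E17 differences of -0.74 with BPA, 0.00 with DES and -0.38 in Control. Slc2a1, the main glucose transporter of fetal tissue, read 2508, 1225 and 576 on the BPA arrays from E17 to P0. It read 1751, 1558 and 1491 on the DES arrays and 2050, 1301 and 455 on the Control arrays. Ppp1r3b, a second glycogen-targeting subunit beside Ppp1r3c, read 341, 647 and 127 on the BPA, DES and Control P0 arrays, against 892, 994 and 918 at E17. Pfkfb3, which makes an activator of glycolysis, read 105, 169 and 115 at P0, against 249, 220 and 374 at E17. Gys1, glycogen synthase of muscle and most tissues, read 153, 142 and 68.5 at P0, against 268, 187 and 210 at E17. These 4 were named by a rule that requires the same sign under each agent, and the DES course was the narrowest for each. Of the 19 tested, 10 were lower at P0 under all 3 agents and 2 were higher under all 3. Of all 13398 genes, 18.5% were lower under all 3 and 19.6% were higher. Nothing is read from these shares either.

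Matrix and chromatin targets had medians of -0.46 with BPA, -0.01 with DES and -0.45 in Control. P4ha1, a collagen prolyl hydroxylase subunit, read 337, 707 and 266 on the BPA, DES and Control P0 arrays, against 1127, 774 and 918 at E17. Kdm3a, a histone demethylase, read 524, 723 and 418 at P0, against 754, 762 and 867 at E17. Jmjd6 differed by -0.87, -0.21 and -0.58 log2 units, and P4ha2 by -0.69, -0.50 and -0.04, in the BPA, DES and Control courses.

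Among mitophagy, survival and stress targets, the medians were -0.31 with BPA, 0.11 with DES and -0.17 in Control. Ddit4, an inhibitor of mTOR signalling, read 839, 1382 and 634 on the BPA, DES and Control P0 arrays, against 1413, 1666 and 1957 at E17. Tfrc, the transferrin receptor, differed by -0.91, -0.14 and -1.22 log2 units, and Bhlhe40, a repressor of the clock, by -1.04, -0.15 and -0.93. Hmox1, the heme-degrading enzyme, ran the other way, at 485, 128 and 273 at P0 against 182, 107 and 150 at E17.

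By their medians, vascular and secreted targets did not share the course of Vegfa, at 0.19, 0.17 and -0.07 with BPA, DES and in Control. For 2 of the 13, Flt1 and Pgf, the BPA P0 and Control P0 arrays were the lowest 2. Flt1 differed by -0.67, 0.46 and -0.56 log2 units in the BPA, DES and Control courses, and Pgf by -1.17, 0.06 and -0.06. Igfbp3, an insulin-like growth factor binding protein, differed by 0.54, 0.45 and 0.47 log2 units, and the chemokine Cxcl12 by 0.27, 0.41 and 0.29. Adm, adrenomedullin, differed by -0.09, -0.04 and -0.07. The partners and regulators were nearly level, with medians of 0.05, -0.05 and 0.07. Vhl differed by 0.07, 0.02 and 0.18, the asparaginyl hydroxylase Hif1an by 0.16, 0.01 and 0.07, and the ligase scaffold Cul2 by -0.10, -0.14 and -0.12. Ep300, a coactivator, differed by -0.54 with BPA, -0.18 with DES and -0.57 in Control, in log2 units.

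**Figure D4:**
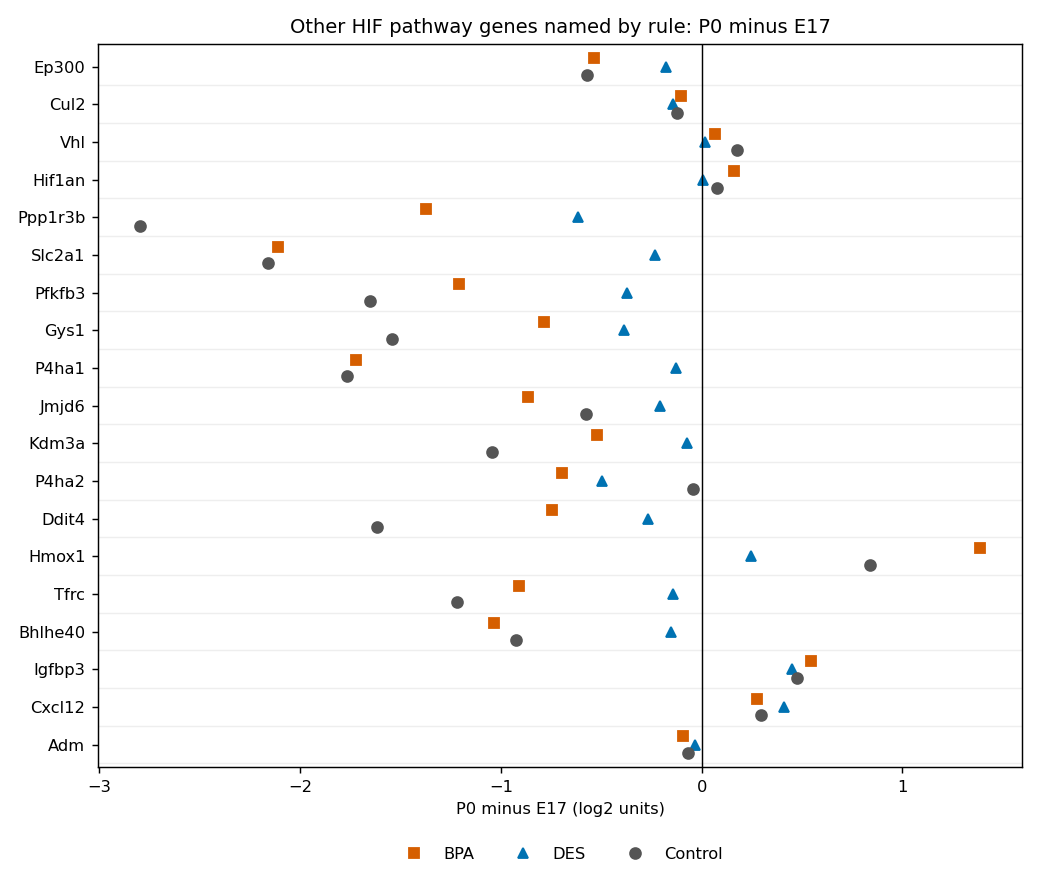
P0 minus E17 difference in log2 units (horizontal axis) of the 19 further pathway genes named by a fixed rule (rows, up to 4 per list), with 1 symbol per agent. Ppp1r3b, Slc2a1, P4ha1 and Ddit4 lie far to the left in the BPA and Control courses, with their DES symbols nearer to 0, while Hmox1, Igfbp3 and Cxcl12 lie right of 0.

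Genes with the most similar pattern over the 9 arrays were looked up for Hif3a and Ankrd37. For Hif3a they were Ap1m2 (Pearson r = 0.98), Pkn2 (0.97), Snhg3 (0.97), Erc1 (0.97) and Piga (0.96), and for Ankrd37 Zfp74 (0.99), Sos1 (0.99), Senp8 (0.99), Vps26c (0.98) and Lpar6 (0.98). Among the members, Ankrd37 correlated best with Ppp1r3c (0.96) and Egln1 (0.91), and least with Hif1a (0.26) and Epas1 (-0.57). The points share agents and ages, so these coefficients describe the 9 arrays only.

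Markers of other tissues also differed between the same arrays. Of the 16 markers of the sinus and its epithelium, 14 were lower at P0 than E17 with BPA, 5 with DES and 10 in Control, and their summed signal was 18832, 20887 and 16797 on the P0 arrays, against 23634, 18870 and 18796 at E17. Of 8 smooth muscle markers, 7, 7 and 8 were lower, with medians of -0.17, -0.09 and -0.85. Of 10 skeletal muscle markers, 2 were lower in each course, with medians of 1.31, 0.65 and 0.73. Of all 13398 genes, 6304, 6790 and 6738 were lower in the BPA, DES and Control courses. Skin-type epithelium markers summed to 23142 on the BPA P0 array and 11081 on the BPA E18 array, against 3109 to 5500 on the other arrays. Of 9 listed erythroid markers 7 had a probe set and 3 passed the filter. The summed signal of the 7 was 502, 528 and 710 on the BPA, DES and Control P0 arrays and 881, 1547 and 1080 at E17. At E18 it was 2501, 569 and 576, so the BPA E18 array was the highest. Of the gonad markers, Inha and Star passed the filter. Inha read 1813 on the BPA P0 array, against 170 to 266 on the others, whereas Star read 101 there, against 37.6 to 121. The part of the gonad, epithelial, muscle, skin-type and blood markers in the members' courses was not tested.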

How the data were processed

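Values are the series' probe set intensities on a linear scale, as deposited by the authors. They were made with MAS5, per the submitters' processing notes; its version and scaling are not given in the sources used here. Affymetrix control probe sets (64) were left out of tests. After quantile normalization between arrays, values became log2(signal + 5.46), where 5.46 is the 10th percentile of the normalised signals. The low-signal filter kept probe sets whose mean log2 value reached the 40th percentile, a signal of 41.2.

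Agents were compared in R 4.3.3 with limma 3.58.1, using lmFit and a trended eBayes on 9 arrays with agent and age as factors (residual df 4, prior df 5.77). Benjamini-Hochberg adjustment covered every tested probe set at a threshold of 0.05. Nothing in the labels says that arrays came from separate litters, and no agent had a repeat array at any age. The p-values therefore do not rest on spread among replicates. They rest on how far agent differences varied between ages, mixed with any technical spread among arrays. An agent shift that changes with age adds to that residual spread and can cancel in the agent term, so the fit cannot decide whether there was such a shift. The fit was tested on simulated data. The number of arrays limits the precision.

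All 23 member probe sets matched their gene through the Entrez identifier in the RefSeq table. The members and lists were chosen with earlier results of these data known. Further genes were named by a fixed rule: from each list up to 4 whose P0 minus E17 difference had the same sign under the 3 agents and the largest mean size, and the 5 genes most correlated with Hif3a and with Ankrd37. Alternatives covered scaling, pseudocount, filter, trend, age term, 1 probe set per gene and arrays left out.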

Additional observations from a re-analysis of the deposited data

Results flagged for a closer look

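For 5 of the 10 genes the P0 minus E17 difference had opposite signs in the DES and Control courses, each course resting on 1 array per age. This difference between courses was not tested. The DES course minus the Control course came to 2.78 log2 units for Ankrd37 (0.27 with DES, -2.51 in Control) and 2.48 for Ppp1r3c (0.24 and -2.25). It was 1.61 for Ndufa4l2 (0.58 and -1.04), 1.22 for Bnip3 (0.16 and -1.05) and -0.20 for Hif1a (-0.18 and 0.02). In the BPA course the differences were -1.71 for Ankrd37, -1.30 for Ppp1r3c, -0.88 for Ndufa4l2, -1.52 for Bnip3 and -0.18 for Hif1a. The DES P0 array is the one that lay next to the prenatal arrays on the first principal component, and its part in these differences cannot be told apart from that of DES.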

How the results depend on the processing

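Over 20 alternatives 0 member probe sets passed for either agent, and of 20 agent differences (10 genes, 2 agents) 6 kept their direction throughout. With deposited values the BPA differences of Hif1a, Hif3a, Egln1, Bnip3 and Ndufa4l2 turned to -0.19, -0.18, -0.19, -0.15 and -0.25, while the median of all tested probe sets for P0 minus E17 was -0.29. With the BPA arrays of E18 and P0 left out, those of Hif3a, Vegfa and Ankrd37 turned to -0.19, 0.24 and 0.27. Leaving out 1 array, the BPA difference ran from -0.64 to 0.27 for Ankrd37, -0.21 to 0.33 for Bnip3, -0.033 to 0.15 for Egln1, -0.12 to 0.23 for Hif3a, -0.18 to 0.26 for Ndufa4l2, -0.10 to 0.75 for Ppp1r3c and -0.24 to 0.034 for Vegfa. The DES difference ran from -0.21 to 0.98 for Ankrd37, -0.16 to 0.56 for Bnip3, -0.12 to 0.20 for Egln1, -0.037 to 0.33 for Hif3a, -0.35 to 0.42 for Ndufa4l2 and -0.21 to 0.22 for Vegfa. The cause was not tested. The count of all probe sets passing for BPA was 34 with deposited values, 2 with the 60th percentile filter, 2 with 1 probe set per gene, 4 with those BPA arrays left out, and 0 to 7 leaving out 1 array (7 without Control E17, 6 without BPA E17, 1 without BPA E18); for DES it was 0 throughout.

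Without the age term (no replicate block) 0 probe sets passed in either comparison. The 9 member probe sets lower at P0 under all 3 agents became 4 of 10 with 1 probe set per gene, since fewer were counted. Counts of genes at least 1.5-fold lower at P0 were recomputed under settings chosen after seeing the data: from E18 they were 5 with BPA, 0 with DES and 5 in Control. Under the other scalings and pseudocounts they were 8 to 9 with BPA, 1 with DES and 7 to 8 in Control. No share of all tested probe sets was counted under these settings. Dim probe sets such as 1447061_at of Hif3a lie nearest to background.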
